A study of Homo sapiens with 12 samples.

Results

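Gluconeogenesis makes glucose from lactate, amino acids and glycerol and is a defining task of hepatocytes. It runs most of its steps through glycolytic enzymes working in reverse and bypasses the irreversible ones with enzymes of its own. The genes described here encode that bypass: PC (pyruvate carboxylase, which makes oxaloacetate from pyruvate in mitochondria), PCK1 and PCK2 (the cytosolic and the mitochondrial phosphoenolpyruvate carboxykinase), FBP1 (fructose-1,6-bisphosphatase), and the glucose-6-phosphatase system of the endoplasmic reticulum, formed by the catalytic subunits G6PC1 and G6PC3 and the glucose 6-phosphate transporter SLC37A4. They were chosen by name, 7 of the 60666 genes listed in the count tables. Of these, 5 passed the filter on low counts and were tested among 14274 genes, while PCK1 and G6PC1 were not tested because they had almost no reads.

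Huh7, an established human hepatocellular carcinoma cell line, was grown in high-glucose medium with fetal calf serum and treated with Molidustat, which inhibits prolyl hydroxylases and so keeps the HIF-α subunits from being degraded. The 4 groups of 3 libraries were DMSO alone for 24 h, 25 µM Molidustat for 24 h, DMSO alone for 48 h and 25 µM Molidustat for 48 h, all in the same parental line without genetic change. RNA was read at the 3′ end of transcripts and given as whole-number counts per gene. The methods describe biological replicates and the study's record describes RNA extracted in triplicate, so p-values measure only the spread between these samples, which may be technical.

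The libraries held 1499273 to 9179389 counts on genes. DMSO 48 h replicate 2 stood apart from the others. It had the lowest total, and the share of its listed reads outside annotated genes was 50.4%, where the other 11 libraries had 17.1 to 25.6%. Its correlation across genes with the other libraries was 0.707 to 0.782, against 0.855 to 0.956 among the others. It was kept in the fits. Printed fold changes of Molidustat against DMSO that turned sign or moved the most without it, and counts of calls that changed, are also given without it, a check chosen after seeing the data. Levels are given as CPM (counts relative to the size of the library, scaled by TMM) and fold changes compare 1 gene between libraries. The TMM factor of DMSO 48 h replicate 2 was 0.629, against 1.01 to 1.08 in the other 11 libraries, which raises its CPM relative to theirs. Across genes CPM served only to rank them by read abundance. Fold changes are log2 values of Molidustat against DMSO with their standard error (SE) from edgeR. A gene was called higher or lower when edgeR's quasi-likelihood test gave a Benjamini-Hochberg adjusted p below 0.05 over all 14274 genes and a log2 fold change beyond 1.

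The liver origin of the cells was checked against 10 hepatocyte markers (ALB, AFP, APOA1, APOB, TTR, TF, FGB, HNF4A, AHSG and SERPINA1). All 10 were detected in all 12 libraries, with AFP, the fetal albumin-like protein of hepatoma cells, the most abundant. Their summed level was 12965 to 15926 CPM in DMSO 24 h and 19408 to 23530 CPM in Molidustat 24 h. It was 9188 to 17373 CPM in DMSO 48 h and 25190 to 30273 CPM in Molidustat 48 h, so the groups did not overlap at either time. Among 12 markers of fibroblasts, leukocytes, endothelium and bile duct, 2 (CD3E and VWF) had no read in any library and KRT19, a bile duct keratin that hepatoma lines also express, was the most abundant. Their summed level was 51.8 to 65.2 CPM in DMSO 24 h, 82.1 to 119 CPM in Molidustat 24 h, 4.24 to 44.9 CPM in DMSO 48 h and 58.6 to 101 CPM in Molidustat 48 h. Both marker sums were thus higher with Molidustat, and their part in the values of the gluconeogenesis genes was not tested. In such bulk samples a change in the share of cells that express a gene and a change in RNA per cell cannot be told apart.

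At the entry of the pathway, PC and PCK2 were detected in every library and PCK1 was at the limit of detection. PC (ENSG00000173599, GRCh38 chr11:66848417-66958386, minus strand) stood at 56.1, 35.7 and 42.2 CPM in DMSO 24 h and at 51.5, 83.3 and 47.5 CPM in Molidustat 24 h. At 48 h it stood at 55.9, 29.7 and 62.4 CPM with DMSO and at 68.7, 58.1 and 73.6 CPM with Molidustat. The groups overlapped at both times. The highest 24 h value belonged to Molidustat replicate 2 and the lowest 48 h value to DMSO replicate 2. The log2 fold change of PC was 0.45 at 24 h (SE 0.35) and 0.41 at 48 h (SE 0.35), and averaged over both times 0.43 (SE 0.24, adjusted p = 0.543, edgeR quasi-likelihood test, Benjamini-Hochberg). The value rested in part on these single libraries, since it was 0.14 at 24 h without Molidustat 24 h replicate 2 and 0.16 at 48 h without DMSO 48 h replicate 2.

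PCK2 (ENSG00000100889, chr14:24094053-24110598, plus strand) converts oxaloacetate to phosphoenolpyruvate inside mitochondria. Its level was 17.4, 10.8 and 8.23 CPM in DMSO 24 h and 13.2, 19.5 and 13.0 CPM in Molidustat 24 h. In DMSO 48 h it was 11.5, 11.7 and 7.10 CPM, and in Molidustat 48 h it was 20.6, 19.2 and 33.9 CPM. The groups overlapped at 24 h, whereas at 48 h each Molidustat library lay above each DMSO library, a separation in this direction that 9.96% of all genes tested showed. The 48 h values rested on 11 to 181 counts per library, the fewest in DMSO 48 h replicate 2. The log2 fold change was 0.33 at 24 h (SE 0.44) and 1.32 at 48 h (SE 0.45, 95% interval 0.35 to 2.28), a mean of 10.1 ± 2.58 CPM (SD, n = 3) against 24.6 ± 8.09 CPM (SD, n = 3). PCK2 was not called at 48 h by edgeR's quasi-likelihood test, with an adjusted p of 0.233 after Benjamini-Hochberg adjustment. The call depended on the tool, since limma-voom with sample quality weights, which gave DMSO 48 h replicate 2 the lowest weight of all libraries (0.298), put PCK2 at 1.61 with an adjusted p of 0.0138. DESeq2 gave 1.32 with an adjusted p of 0.0930. In edgeR with each library left out in turn, the log2 fold change of PCK2 at 48 h ranged from 1.003 without Molidustat 48 h replicate 3 to 1.47 without DMSO 48 h replicate 1, with Benjamini-Hochberg adjusted p of 0.207 to 0.550.

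PCK1 (ENSG00000124253, chr20:57561080-57568121, plus strand), the cytosolic and hormone-regulated form of the enzyme, had 4 counts in all, in DMSO 48 h replicate 3 (0.412 CPM). The other 11 libraries had no count for PCK1, which allows a level of up to 0.363 CPM in Molidustat 24 h replicate 2 and up to 3.18 CPM in DMSO 48 h replicate 2 (3 counts of the library, counting error only). A difference between the groups was not detectable at this depth.

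FBP1 (ENSG00000165140, chr9:94603133-94640249, minus strand) removes a phosphate from fructose 1,6-bisphosphate. It was sparsely detected, with 112 counts over all libraries. Its level was 0.229, 1.92 and 0 CPM in DMSO 24 h and 2.86, 0.121 and 0 CPM in Molidustat 24 h, so 1 library of each group had no read. At 48 h it was 2.84, 1.06 and 0.721 CPM with DMSO and 8.06, 3.42 and 4.49 CPM with Molidustat. The 3 Molidustat 48 h libraries, with 36, 8 and 24 counts, lay above every other library of the series. DMSO 48 h replicate 2 had 1 count, where 3 counts stand for 3.18 CPM. FBP1 reached the filter on low counts only through the Molidustat 48 h libraries, so this separation was partly fixed by the filter. The log2 fold change of FBP1 was 0.44 at 24 h (SE 1.57) and 1.72 at 48 h (SE 1.42, 95% interval -1.29 to 4.74), and its adjusted p at 48 h was 0.669 with edgeR's quasi-likelihood test and Benjamini-Hochberg adjustment. The 24 h value was -2.83 without Molidustat 24 h replicate 1 and 2.73 without DMSO 24 h replicate 2, so its direction at that time was set by single libraries with 8 and 5 counts. The 3′ end of FBP1 shares 283 exon bases with PCAT7, a long non-coding RNA on the opposite strand. The strand setting of the counting is not given in the sources used here. Reads over the shared bases may therefore be counted for the wrong gene or, as ambiguous, for neither. PCAT7 itself stood at a log2 fold change of -0.67 at 24 h (SE 0.65) and -0.81 at 48 h (SE 0.66).

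The last step of the pathway, release of glucose from glucose 6-phosphate, was represented by G6PC3 and SLC37A4, with the liver enzyme G6PC1 at the limit of detection. G6PC1 (ENSG00000131482, chr17:42900797-42914438, plus strand) had 5 counts in Molidustat 48 h replicate 3 (0.936 CPM) and no count in the other 11 libraries, which allows up to 0.309 CPM in DMSO 48 h replicate 3 and up to 3.18 CPM in DMSO 48 h replicate 2. G6PC3 (ENSG00000141349, chr17:44070620-44082151, plus strand), the form made in most tissues, stood at 60.9, 38.4 and 29.02 CPM in DMSO 24 h and at 53.2, 48.4 and 24.3 CPM in Molidustat 24 h. In DMSO 48 h it stood at 46.1, 39.2 and 46.4 CPM and in Molidustat 48 h at 47.2, 34.6 and 43.98 CPM. The groups overlapped at both times and their means lay between 41.9 and 43.9 CPM. The log2 fold change of G6PC3 was -0.03 at 24 h (SE 0.36, 95% interval -0.80 to 0.75) and -0.07 at 48 h (SE 0.37, 95% interval -0.85 to 0.71). Its sign turned with small changes in scaling or filter. Its 3′ end shares 1826 exon bases with HDAC5 on the opposite strand, and HDAC5 stood at 0.20 at 24 h (SE 0.39) and 0.39 at 48 h (SE 0.39) on the log2 scale.

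SLC37A4 (ENSG00000137700, chr11:119023751-119030906, minus strand) carries glucose 6-phosphate into the endoplasmic reticulum. Its level was 24.5, 8.45 and 21.6 CPM in DMSO 24 h and 11.4, 17.8 and 5.74 CPM in Molidustat 24 h. At 48 h it was 17.6, 8.48 and 16.7 CPM with DMSO and 17.5, 7.27 and 12.4 CPM with Molidustat. At both times the groups overlapped. The log2 fold change was -0.64 at 24 h (SE 0.54, 95% interval -1.79 to 0.51) and -0.24 at 48 h (SE 0.55, 95% interval -1.39 to 0.92). SLC37A4 shares 868 exon bases at its 3′ end with TRAPPC4 on the opposite strand, whose log2 fold change was -0.05 at 24 h (SE 0.35) and 0.37 at 48 h (SE 0.35). PC shares 621 exon bases with LRFN4, away from its own 3′ end, and LRFN4 had 2 counts in all.

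**Figure D1:**
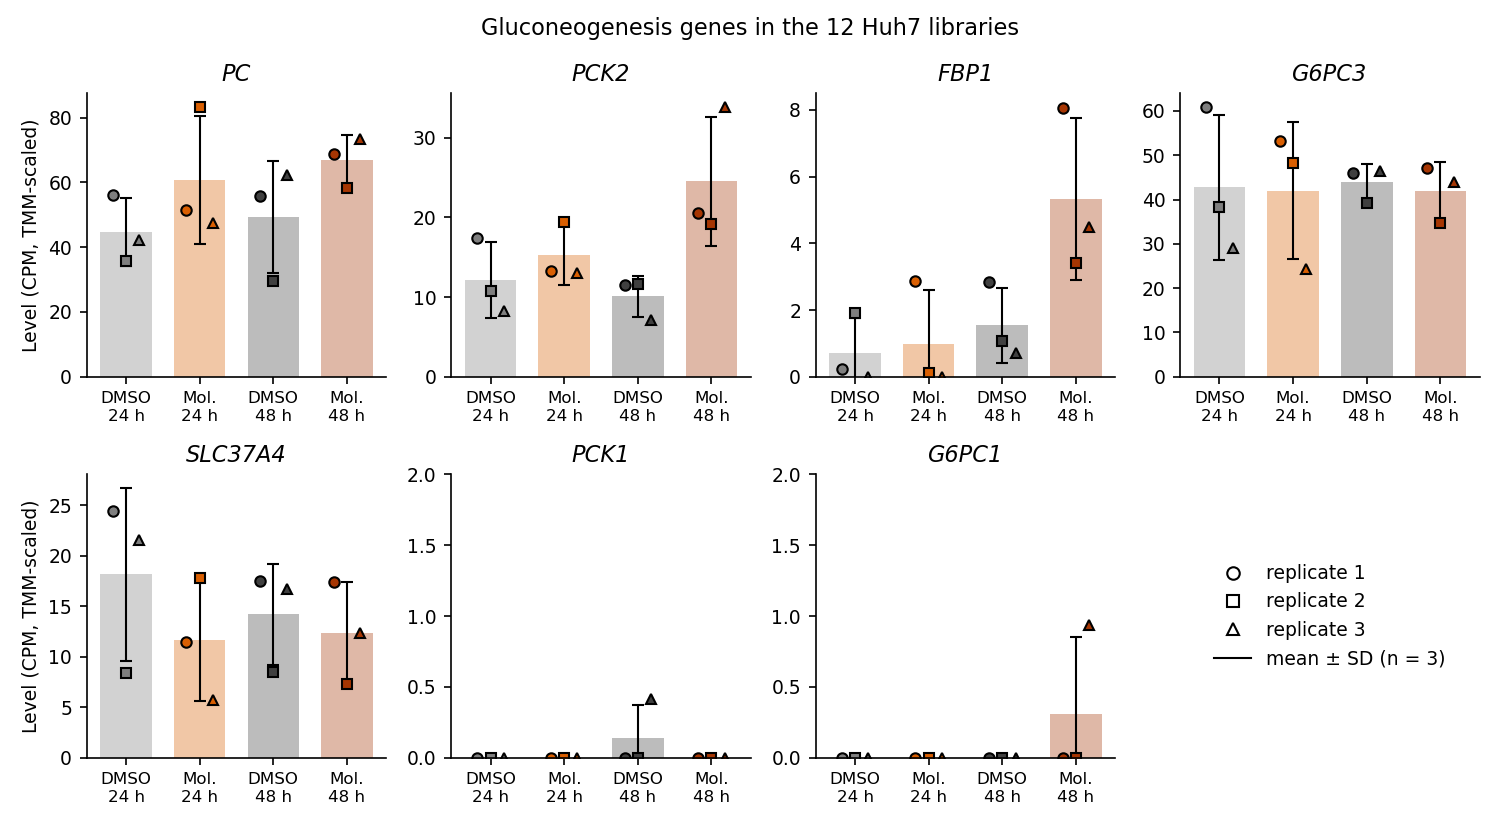
Level (CPM, TMM-scaled) of each gluconeogenesis gene in the 12 libraries, by group. Symbols are replicates, and bars with lines are the mean ± SD of 3 libraries (the lower line is clipped at 0). PCK2 and FBP1 separate with Molidustat at 48 h, PC, G6PC3 and SLC37A4 overlap, and PCK1 and G6PC1 have reads in 1 library each.

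None of the 5 tested genes was called in any comparison of treatment by edgeR's quasi-likelihood test (0 at 24 h, 0 at 48 h and 0 averaged over both times). At an unadjusted p under 0.05, 0 genes differed at 24 h, 1 at 48 h and 1 on average, PCK2 each time. DESeq2 also called 0 in each comparison (at 48 h it gave FBP1 no adjusted p), and limma-voom with sample quality weights called 0 at 24 h, 1 at 48 h (PCK2) and 0 on average. At an unadjusted p under 0.05 limma-voom gave 0 members at 24 h, 2 at 48 h (PCK2, and FBP1 at 2.04 with SE 0.75 and an adjusted p of 0.187) and 1 on average (PCK2). For comparison, edgeR called 0.231% of all tested genes higher at 24 h, 0.210% at 48 h and 0.960% on average, and 0%, 0.0210% and 0.0701% lower. At an unadjusted p under 0.05, edgeR put 3.73%, 4.53% and 5.79% of all genes higher and 1.52%, 8.81% and 5.24% lower. No such share was taken for limma-voom, so its counts at this p have no background and are not read as a result about the members. DESeq2 called 0.946% higher at 24 h, 1.42% at 48 h and 1.81% on average and 0.0853%, 1.46% and 0.299% lower, and limma-voom 0.448%, 1.71% and 1.95% higher and 0%, 0.238% and 0.245% lower. With so few genes called and 5 members tested, a count of 0 was close to the background. The median log2 fold change of the 5 genes was 0.33 at 24 h, 0.41 at 48 h and 0.43 on average, against 0.02, 0.01 and -0.01 over all genes tested. Without DMSO 48 h replicate 2 the medians of the 5 genes were 0.35, 0.16 and 0.31, against 0.04, 0.01 and 0.03 over the 15253 genes then tested, so that library set much of the 48 h median. PC, PCK2 and FBP1 were positive and G6PC3 and SLC37A4 negative at both times. The groups did not overlap for 0 of 5 at 24 h, where 7.24% of all genes were separated upwards and 5.02% downwards, and for 2 of 5 at 48 h (PCK2 and FBP1), both upwards, where the background was 9.96% upwards and 8.04% downwards. FBP1 passed the filter on low counts only through the Molidustat 48 h libraries, so its part in this count was partly fixed by the filter.

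The response did not pass the test of a difference between the times for any of the 5 genes. The 48 h response minus the 24 h response was 0.98 for PCK2 (SE 0.63, 95% interval -0.36 to 2.32) and 1.29 for FBP1 (SE 2.15), and the adjusted p of the 5 genes lay between 0.831 and 0.994 with edgeR's quasi-likelihood test and Benjamini-Hochberg adjustment. No gene of the 14274 was called for this difference by edgeR (0 genes, with 168 or 1.18% higher and 800 or 5.60% lower at an unadjusted p under 0.05), while DESeq2 called 2 higher and 6 lower and limma-voom 0. Of the members, limma-voom put PCK2 at an unadjusted p under 0.05 for this difference (1.37, SE 0.60, adjusted p = 0.989). The limma-voom share of all genes at that p was not taken. Time in culture was compared within each treatment. From 24 h to 48 h with DMSO, the log2 changes were -0.29 for PCK2 (SE 0.45), 0.17 for PC (SE 0.35), 1.29 for FBP1 (SE 1.52), 0.04 for G6PC3 (SE 0.37) and -0.32 for SLC37A4 (SE 0.54). With Molidustat they were 0.69 for PCK2 (SE 0.44), 0.14 for PC (SE 0.34), 2.58 for FBP1 (SE 1.48), 0.00 for G6PC3 (SE 0.36) and 0.09 for SLC37A4 (SE 0.54). In both comparisons 0 members were called by edgeR, DESeq2 or limma-voom, where edgeR called 0% of all genes higher and 0.00701% lower with DMSO and 0% in each direction with Molidustat. With edgeR and DESeq2 0 members passed an unadjusted p under 0.05, and with limma-voom 0 with DMSO and 1 with Molidustat (FBP1 at 3.77, SE 1.41, adjusted p = 0.509). Such a p was given by edgeR for 6.76% of all genes upwards and 1.38% downwards with DMSO and for 2.39% and 2.19% with Molidustat. No such share was taken for limma-voom, so its count has no background. FBP1 with Molidustat was separated upwards at 48 h against 24 h, as were 7.14% of all genes (6.79% were separated downwards). This too was partly fixed by the filter, which FBP1 passed only through the Molidustat 48 h libraries. With DMSO 0 of 5 members were separated, against 5.74% of all genes upwards and 6.21% downwards. These comparisons share libraries with those of the treatment.

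Most enzymes that gluconeogenesis shares with glycolysis rose with Molidustat. Of 9 such reversible enzymes, all tested, edgeR called 2 higher at 24 h, 1 at 48 h and 8 averaged over both times (background 0.231%, 0.210% and 0.960%), with no gene called lower and median log2 fold changes of 1.92, 1.59 and 1.67. DESeq2 called 7, 8 and 8 higher and limma-voom 6, 7 and 9, so the counts at each time depended on the tool. Without DMSO 48 h replicate 2, edgeR called 9, 4 and 9. PGK1 (phosphoglycerate kinase) stood at 71.8 to 74.9 CPM in DMSO 24 h, 352 to 707 CPM in Molidustat 24 h, 87.5 to 164 CPM in DMSO 48 h and 426 to 539 CPM in Molidustat 48 h. Its log2 fold change was 2.80 at 24 h (adjusted p = 0.00112) and 1.99 at 48 h (adjusted p = 0.0235), both with edgeR's quasi-likelihood test and Benjamini-Hochberg adjustment. On average over both times GAPDH rose by 2.16, TPI1 (triosephosphate isomerase) by 1.67, ENO1 by 1.57, ALDOA by 1.48, PGAM1 by 1.35 and ALDOC by 3.66 on the log2 scale. ENO2 had no read in DMSO 24 h and was at least 7.29-fold higher in Molidustat 24 h, taking 3 counts per library as the limit of detection, and at that bound the 24 h median of the list remained 1.92. GPI was not called on average, at 0.41 (SE 0.48), with 6950 CPM in DMSO 48 h replicate 2 against 735 and 907 CPM in its sister libraries. Without that library GPI was called, at 1.32 (SE 0.26, adjusted p = 0.0103 with edgeR's quasi-likelihood test and Benjamini-Hochberg adjustment). Reads of GAPDH and of other abundant glycolytic genes can be shared with their processed copies, which leaves these counts uncertain.

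The enzymes that run against the gluconeogenic ones were 8 hexokinases, phosphofructokinases and pyruvate kinases, of which 4 passed the filter. EdgeR called 0 of them at 24 h and 0 at 48 h (3 and 2 higher at an unadjusted p under 0.05, and 2 and 2 by DESeq2, 2 and 1 by limma-voom) and 2 higher on average, PKM and PFKL. Without DMSO 48 h replicate 2, edgeR called 2 of 5 at 24 h, 0 at 48 h and 2 on average. PKM, the pyruvate kinase of proliferating cells, stood at 343 to 483 CPM in DMSO 24 h and 882 to 1322 CPM in Molidustat 24 h, and at 332 to 585 CPM in DMSO 48 h and 979 to 1170 CPM in Molidustat 48 h. PKM rose by 1.31 on average (SE 0.23, adjusted p = 0.00861) and PFKL, the liver phosphofructokinase, by 1.41 (SE 0.26, adjusted p = 0.0118), both with edgeR's quasi-likelihood test and Benjamini-Hochberg adjustment. HK2 was at 1.15 at 24 h (SE 0.50) and 0.62 at 48 h (SE 0.50) and was not called. PKLR, the liver pyruvate kinase, had 43 counts in all and was not tested. Of the bifunctional enzymes that set fructose 2,6-bisphosphate, the allosteric inhibitor of fructose-1,6-bisphosphatase, 3 of 4 were tested. PFKFB4 was called at 24 h (4.16), at 48 h (3.24) and on average (3.70), and PFKFB3 on average (2.80), by edgeR. At 24 h (3.03, SE 0.65) and 48 h (2.58, SE 0.65) PFKFB3 was not called by edgeR but was called by DESeq2 and limma-voom, and without DMSO 48 h replicate 2 edgeR called 2, 1 and 2 of the 3. PFKFB2 stood at -3.85 at 48 h (SE 1.38) and -2.06 on average (SE 0.92) and was not called by edgeR or limma-voom, whereas DESeq2 called it lower at 48 h (-4.09, adjusted p = 0.0448). The level of PFKFB2 in DMSO 48 h was 6.35, 41.3 and 1.85 CPM, the high value being replicate 2, and without that library edgeR put it at -1.97 at 48 h (SE 1.34) and -1.12 on average (SE 0.90).

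**Figure D2:**
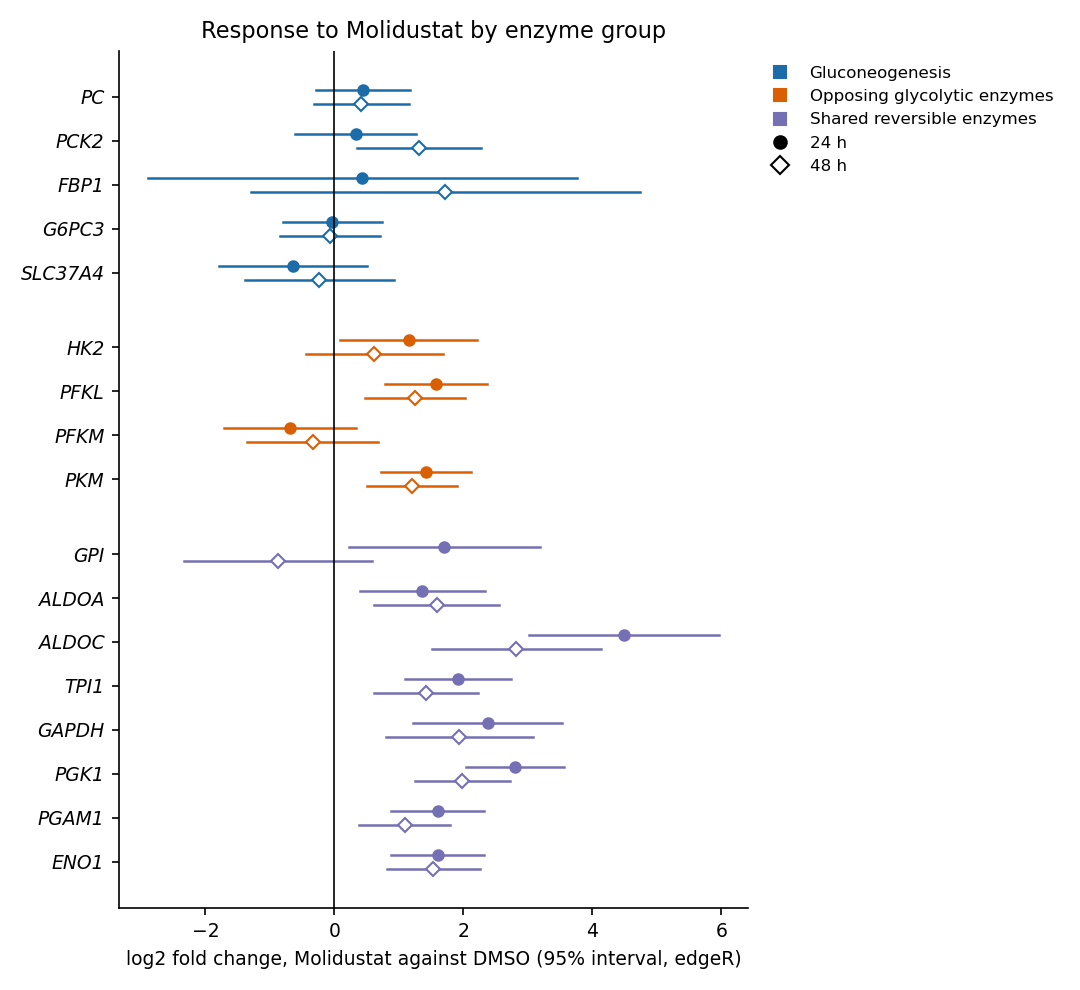
Log2 fold change of Molidustat against DMSO with its 95% interval from edgeR, at 24 h (filled circles) and 48 h (open diamonds), for the tested gluconeogenesis genes, the opposing glycolytic enzymes and the shared reversible enzymes (ENO2, with no read in DMSO 24 h, is not drawn). The intervals of PC, FBP1, G6PC3 and SLC37A4 include 0 at both times, and that of PCK2 lies above 0 at 48 h only, from 0.35 to 2.28.

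For each irreversible step, the summed gluconeogenic counts were set against the summed counts of the opposing glycolytic enzymes of the same library. This log2 ratio is given without a test, since counts of different genes may not be on a common scale. Only its change between libraries can be read. At the step between pyruvate and phosphoenolpyruvate (PC, PCK1 and PCK2 over PKLR and PKM) the ratio was -2.72, -3.31 and -2.77 in DMSO 24 h and -4.35, -3.57 and -3.87 in Molidustat 24 h. It was -2.85, -3.005 and -3.07 in DMSO 48 h and -3.71, -3.67 and -3.32 in Molidustat 48 h. The groups did not overlap at either time, the ratio being lower with Molidustat, and PKM held most of the glycolytic counts. The nearest 24 h libraries had overlapping 95% intervals, -3.59 to -3.03 (DMSO replicate 2) and -3.68 to -3.47 (Molidustat replicate 2). Those of the nearest 48 h libraries did not overlap, -3.19 to -2.96 (DMSO replicate 3) and -3.45 to -3.20 (Molidustat replicate 3). The wide interval of DMSO 48 h replicate 2 (-3.52 to -2.52) overlapped that of Molidustat 48 h replicate 3. The gluconeogenic sum of this step was 73.5, 46.5 and 50.4 CPM in DMSO 24 h and 64.7, 103 and 60.5 CPM in Molidustat 24 h. In DMSO 48 h this sum was 67.4, 41.3 and 69.9 CPM, and in Molidustat 48 h 89.3, 77.4 and 107 CPM. The lower ratio with Molidustat therefore does not mean a lower gluconeogenic sum, and PKM was higher at both times. At the glucose step (G6PC1 and G6PC3 over HK1, HK2 and HKDC1) the ratio was 0.94 to 3.47 in DMSO 24 h, -0.40 to 1.76 in Molidustat 24 h, 1.04 to 1.73 in DMSO 48 h and 0.17 to 1.02 in Molidustat 48 h. The groups overlapped at 24 h. At 48 h they were separated by less than counting error, since the lowest DMSO library was at 1.04 (37 over 18 counts, 95% exact Clopper-Pearson interval 0.19 to 1.94) and the highest Molidustat library at 1.02 (240 over 118 counts, 0.70 to 1.36), and adding 0.5 to each count reversed their order. At the fructose step (FBP1 over the phosphofructokinases) FBP1 had 36 counts or fewer per library, and 1 library of each 24 h group had none, which gives no ratio but allows up to -6.46 in DMSO 24 h replicate 3 and up to -7.87 in Molidustat 24 h replicate 3 (3 counts of FBP1). The other libraries were at -8.28 and -4.81 in DMSO 24 h and -5.85 and -9.88 in Molidustat 24 h. At 48 h they were at -7.21 to -5.23 with DMSO and -5.48 to -4.79 with Molidustat, and the groups overlapped at both times.

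**Figure D3:**
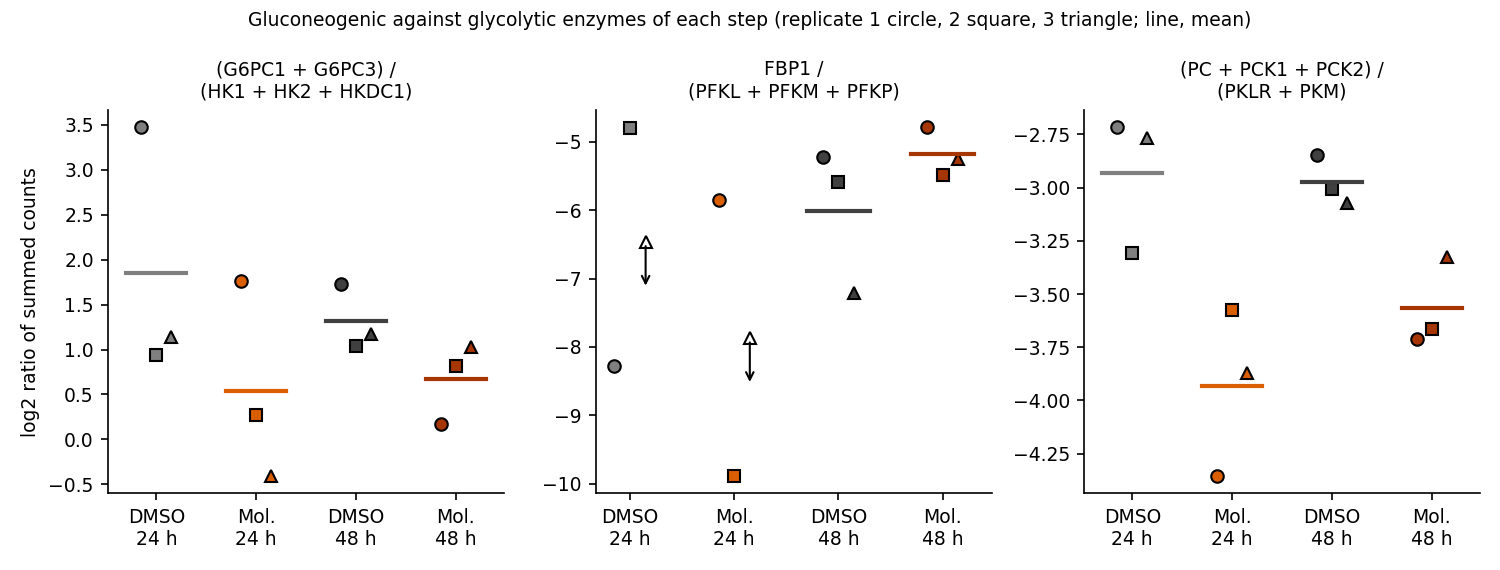
Log2 ratio of summed counts of gluconeogenic over opposing glycolytic enzymes at the glucose, fructose and pyruvate steps, in the 12 libraries by group (circle, square and triangle are replicates 1, 2 and 3, lines are group means). Open symbols with arrows are upper limits of libraries without an FBP1 read, whose groups have no mean line. At the pyruvate step all Molidustat libraries lie below all DMSO libraries of the same time, while at the other steps the groups overlap or, at the glucose step at 48 h, lie 1.02 against 1.04 at their nearest.

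The genes that feed the pathway were mostly not called. Of 5 tested genes for the entry of pyruvate and alanine, edgeR called only LDHA (lactate dehydrogenase A), at 24 h (2.48, adjusted p = 0.00577) and on average (2.17, SE 0.27, adjusted p = 0.000351, both edgeR quasi-likelihood test, Benjamini-Hochberg). At 48 h LDHA stood at 1.86 (SE 0.37, adjusted p = 0.0610 with edgeR), and it was called there by DESeq2 and limma-voom, and by edgeR without DMSO 48 h replicate 2 (1.55, SE 0.27, adjusted p = 0.0120). The mitochondrial pyruvate carrier subunits stood at -0.15 at 24 h and 0.67 at 48 h for MPC2 (SE 0.35 and 0.35) and at -0.80 and 0.28 for MPC1 (SE 0.34 and 0.34). Of 7 tested genes of the malate and aspartate shuttle, which carries oxaloacetate equivalents out of mitochondria, edgeR, DESeq2 and limma-voom called 0 at either time or on average, and with edgeR 0 passed an unadjusted p under 0.05. MDH1 was at 0.22, MDH2 at -0.10 and SLC25A11 at 0.06 on average, and SLC25A11 at -0.09 without DMSO 48 h replicate 2. Of 4 tested genes of glycerol entry edgeR called 0 in each comparison (1 higher at an unadjusted p under 0.05 each time), whereas DESeq2 and limma-voom each called 1 higher on average. The glycerol channel AQP3 stood at 1.64 on average (SE 0.43), glycerol kinase GK at -0.38 (SE 0.35) and GPD2 at -0.35 (SE 0.22). GK was at 23.2, 78.4 and 23.3 CPM in DMSO 48 h, and its average was 0.02 (SE 0.28) without replicate 2 of that group. SLC2A1, the glucose importer GLUT1, rose by 1.98 at 24 h and by 1.81 on average. At 48 h it stood at 1.65 (SE 0.36, adjusted p = 0.0892 with edgeR), where DESeq2 and limma-voom called it. H6PD, which works beside the glucose-6-phosphatase in the endoplasmic reticulum, stood at 0.05 on average (SE 0.39). SLC2A2, the glucose exporter of hepatocytes, had 26 counts, all in 2 of the Molidustat 48 h libraries, and was not tested.

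Other isozymes and other SLC37 transporters were looked at beside the members. G6PC2 of pancreatic islets had no read and FBP2 of muscle had 98 counts. Of the 3 tested genes of this list (FBP2, SLC37A1 and SLC37A3), edgeR called 0 in each comparison (0 at an unadjusted p under 0.05) and DESeq2 and limma-voom 0, though at 48 h DESeq2 gave an adjusted p for 1 of the 3. SLC37A3, at 15.8 to 21.1 CPM by group mean, had a log2 fold change of 0.15 on average (SE 0.38), SLC37A1 of 0.44 (SE 0.88) and FBP2 of -1.03 (SE 0.89).

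Among 23 transcriptional regulators of the pathway, all tested, edgeR called 0 at 24 h and 0 at 48 h (1 higher and 1 lower, and 1 higher and 2 lower, at an unadjusted p under 0.05), DESeq2 and limma-voom 0 at 24 h and 1 higher at 48 h. On average each tool called 1, and at an unadjusted p under 0.05 edgeR put 1 higher and 3 lower. The gene called by edgeR was NR0B2 (SHP), a repressor of nuclear receptors and of gluconeogenic genes, which rose. Its level was 2.52, 0.384 and 3.50 CPM in DMSO 24 h and 9.65, 9.79 and 12.3 CPM in Molidustat 24 h. In DMSO 48 h it was 0.405, 0 and 3.40 CPM and in Molidustat 48 h 18.4, 17.1 and 15.7 CPM. No DMSO library reached a Molidustat library of the same time. The log2 fold change of NR0B2 was 2.81 on average (SE 0.58, adjusted p = 0.0269, edgeR quasi-likelihood test, Benjamini-Hochberg). HNF4A, a nuclear receptor of hepatocyte identity that is also in the hepatocyte list, stood at -0.24 at 24 h (SE 0.79) and -1.88 at 48 h (SE 0.82), and at -0.05 at 48 h without DMSO 48 h replicate 2. TCF7L2 stood at -0.70 (SE 0.41) and CEBPB at -0.05 (SE 0.28) on average. The level of TCF7L2 in DMSO 48 h was 140, 868 and 153 CPM, and its average was -0.0041 (SE 0.23) without replicate 2 of that group. Of 9 tested genes of insulin, glucagon and AMPK signalling, edgeR called 0 in each comparison (0 at 24 h and 2 lower at 48 h at an unadjusted p under 0.05), as did DESeq2, which gave an adjusted p for 8 of the 9, and limma-voom. INSR, the insulin receptor, was at 0.64 at 24 h (SE 0.82) and -2.16 at 48 h (SE 0.85). Its level in DMSO 48 h was 214, 3771 and 315 CPM, and without replicate 2 of that group INSR was at 0.26 at 48 h (SE 0.47) and turned from -0.76 (SE 0.58) to 0.45 (SE 0.32) on average. PRKAA1 stood at -0.32 (SE 0.20) and STK11 at -0.05 (SE 0.22) on average.

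PCK2 is a known target of ATF4, the transcription factor of the amino acid response, so 10 genes of that response were looked at beside it. EdgeR called 0 of the 10 at 24 h, 48 h and on average (1 lower, 1 higher, and 1 of each at an unadjusted p under 0.05), DESeq2 and limma-voom called 0, and the medians were -0.15 at 24 h, -0.02 at 48 h and 0.07 on average. Without DMSO 48 h replicate 2 the medians were -0.13, -0.14 and 0. At 48 h, where PCK2 stood at 1.32, ATF4 was at -0.16 (SE 0.30), PSAT1 at -0.19 (SE 0.37) and TRIB3 at 0.52 (SE 0.36). DDIT3 (CHOP), named after its values were seen, was closer to PCK2, at 1.25 at 48 h (SE 0.45, adjusted p = 0.241 with edgeR), with 50.4, 9.54 and 51.8 CPM in DMSO 48 h and 76.3, 86.8 and 114 CPM in Molidustat 48 h. Those groups did not overlap, a separation in this direction that 9.96% of all genes tested showed. Without DMSO 48 h replicate 2 DDIT3 stood at 0.84 (SE 0.31). Of the 10 genes 4 were positive and 6 negative at 48 h, so DDIT3 does not stand for the list. The hypoxia response was the reference for the action of the drug. Of 10 genes 9 were tested, and edgeR called 4 higher at 24 h, 2 at 48 h and 5 on average, with medians of 2.13, 1.64 and 1.69 (5, 2 and 5 of 10 without DMSO 48 h replicate 2). DESeq2 called 6, 3 and 5 of the 9 higher and limma-voom 4, 6 and 6, so the 48 h count depended on the tool. PGK1 belongs to this list and to the shared enzymes. BNIP3 stood at 102 to 195 CPM in DMSO 24 h and 971 to 1227 CPM in Molidustat 24 h, and rose by 2.74 on average (SE 0.24), and PDK1, which restrains pyruvate dehydrogenase, rose by 2.62 (SE 0.46), NDRG1 by 2.36 (SE 0.41) and P4HA1 by 1.69 (SE 0.26). Of the 10 hepatocyte markers 3 were called on average, TF at 1.39, SERPINA1 at 1.34 and AHSG at 1.28 (4 by DESeq2 and by limma-voom), and 0 at either time by edgeR alone (3 higher at 24 h and 7 higher and 1 lower at 48 h at an unadjusted p under 0.05, and 1 and 4 called by DESeq2 and by limma-voom, and 2 and 2 by edgeR without DMSO 48 h replicate 2), with AFP at 0.43 (SE 0.27) and ALB at 0.88 (SE 0.29) on average. Of the other cell markers 6 of 12 were tested and 0 called by edgeR, DESeq2 or limma-voom (with edgeR 1, 1 and 3 higher at an unadjusted p under 0.05, and at 48 h DESeq2 gave an adjusted p for 2 of the 6), with KRT19 at 0.96 (SE 0.37), CD14 at 1.72 (SE 0.72) and COL1A2 at 1.68 (SE 0.65) on average.

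**Figure D4:**
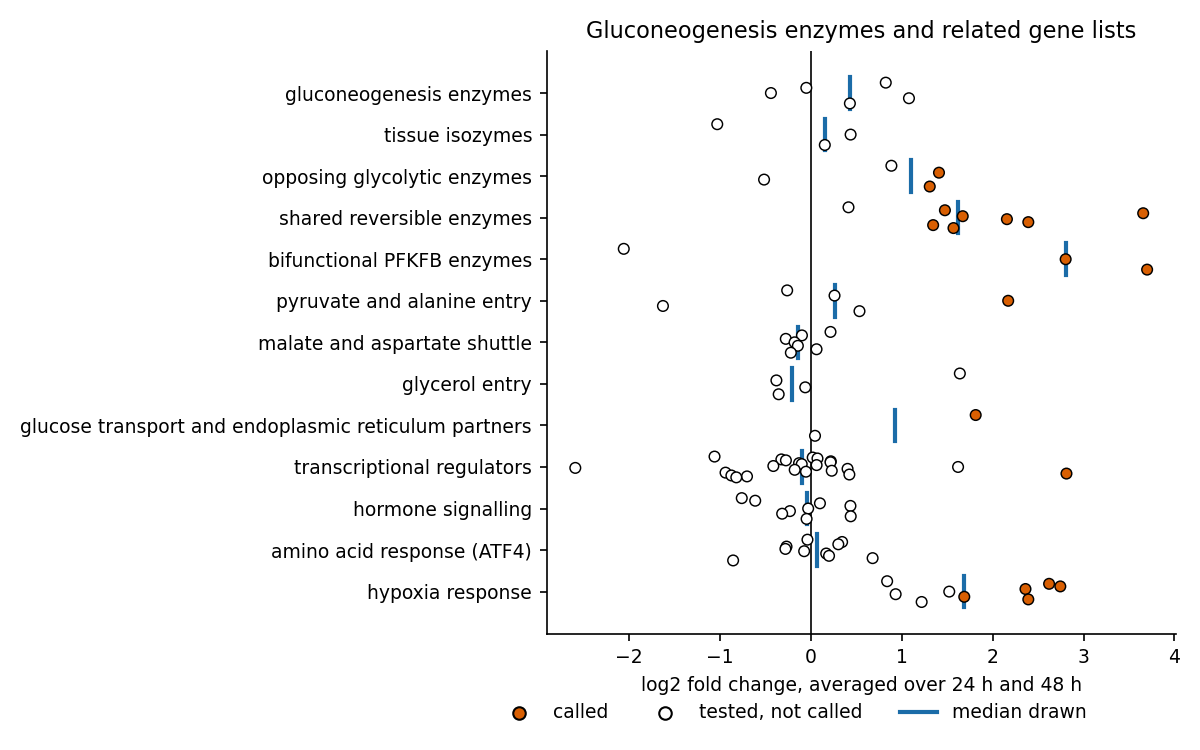
Log2 fold change of Molidustat against DMSO averaged over 24 h and 48 h for every tested gene of the gluconeogenesis enzymes and of 12 related lists (ENO2, with no read in DMSO 24 h, is not drawn). Filled points are genes called by edgeR and blue lines are medians of the genes drawn. None of the 5 gluconeogenesis genes is called, and the called genes lie mainly among the shared, opposing and bifunctional enzymes of glycolysis and the hypoxia response.

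The promoters of the genes were read because HIF binds the letters ACGTG or GCGTG. RefSeq promoters on GRCh38.p14, from 250 bases before to 50 bases after a transcript start, were matched for 6 of the 7 genes (11 promoters), and the letters were searched on both strands. Over all 35097 promoters, 21.4% held ACGTG, 36.5% GCGTG and 48.4% either. ACGTG was found at PC, G6PC3 and G6PC1, GCGTG at SLC37A4 and FBP1, and neither at PCK2, which says only that these letters are not in its window. The matches lay in 1 of 3 promoters of PC, 1 of 2 of SLC37A4 and all 3 of G6PC3, which overlap. Windows of 30 bases around the matches are printed 5′ to 3′ on the strand of the gene, with the matched letters in capitals, to show which of the genes hold them and in which context.
PC, chr11:66958550-66958579, minus strand: ggggcggggctgACGTGgggcgccaaggct
PC, chr11:66958529-66958558, minus strand: gccaaggcttaaACGTGacggacaggcggg
G6PC3, chr17:44070651-44070680, plus strand: agccggctgcccACGTGcctgcaacagtgg
G6PC3, chr17:44070671-44070700, plus strand: gcaacagtggccACGTGgggccctgaggaa
G6PC1, chr17:42900699-42900728, plus strand: cattttagacaaACGTGgtttttgagtcca
SLC37A4, chr11:119030996-119031025, minus strand: gtccaaggagcaGCGTGaccagcgggaggg
SLC37A4, chr11:119030907-119030936, minus strand: gcaggcgaagacCACGCccccgccggccgc
FBP1, chr9:94639674-94639703, minus strand: gggcggcagggcGCGTGggggcgggggttg
Both G6PC3 matches lie in CACGTG, which reads the same on both strands and was counted on each. The second SLC37A4 match was on the other strand, so its capitals read CACGC. Of the motifs of cAMP and amino acid responses, TGACG, held by 24.5% of all promoters, overlapped both PC matches and was found once more at PC, and TGACGTCA, held by 1.85%, was found at none of the 11 promoters. The motif TGATGNAAN, held by 3.61%, was found at G6PC1 in cctgaacatgTTTGCATCAacctactggtg (chr17:42900651-42900680, matched on the other strand) and not at PCK2. A match of letters is a description of the sequence, and no binding was measured in these samples.

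Levels of the 5 tested genes varied together only in part. Over the 12 libraries, Pearson's r of log2 CPM was highest between G6PC3 and SLC37A4 (0.58) and between PCK2 and PC (0.56) and lowest between SLC37A4 and FBP1 (-0.13). Without DMSO 48 h replicate 2 these values were 0.59, 0.61 and -0.15. The genes most like each member among all 14274 were SNRNP200 (0.87) and SFT2D3 (0.86) for PCK2, SCARF2 (0.95), TMEM82 (0.94) and NINJ1 (0.94) for PC, and EDC3 (0.93), CHAF1B (0.90) and TRIM28 (0.89) for G6PC3. For SLC37A4 they were HASPIN (0.90) and SH2B2 (0.85), and for FBP1 NPRL2 (0.89), CBY1 (0.89) and FAM216A (0.88). The third gene of PCK2 and of SLC37A4 had no symbol. Without DMSO 48 h replicate 2 only EDC3 remained first for its gene, and the FBP1 genes took ranks 13, 19 and 14, each with r of 0.89, SH2B2 rank 11 and NINJ1 rank 8. These are descriptions over 12 libraries that share treatment, time, depth and scaling, taken as the highest among all genes tested.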

How the data were processed

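Counts per gene were deposited by the authors for 12 libraries, per the labels and methods made with a QIAseq UPX 3′ kit, trimmed with cutadapt 1.9.1, aligned with STAR 2.7.9a to GRCh38 and counted with HTSeq 0.11.2, with no normalization. The annotation release, the strand setting and the use of molecular identifiers are not given in the sources used here, so limits of detection cover counting error only, while the 95% intervals of fold changes include the spread between libraries. Of the 60666 genes, 60437 have a symbol in GENCODE 44, which also gave the coordinates. The 5 summary lines were kept out of library sizes, with reads on no feature at 17.1 to 50.4% of the listed reads, and all columns were used (0 left out).

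The analysis used edgeR 4.0.16 in R 4.3.3 (filterByExpr, minimum count 10 and minimum total 15, TMM, quasi-likelihood test) in 1 fit of the 12 libraries without covariates, with Benjamini-Hochberg adjustment over 14274 genes. The scripts were tested on simulated data. Alternatives were DESeq2 1.42.0, limma-voom with sample quality weights (limma 3.58.1), RLE factors, total counts, other filters, each time point alone, a replicate block, no fold threshold and leaving out each library. Replicates of a group differed beyond sampling noise, so none was taken for a repeat deposit.

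Named are all 7 members and, of each list, the genes called and the 3 with the highest mean CPM, and for each tested member the 3 genes with the highest Pearson r of log2 CPM (prior count 2). Also named are genes that define a marker list or a ratio, genes that overlap a member, and some genes with few reads or none, such as PKLR and G6PC2. DDIT3 was named after its values were seen. Some genes of these pathways are not reported. The members and lists were chosen with earlier results of these data known. Figures were drawn with matplotlib 3.10.9 in Python 3.11.15.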

Additional observations from a re-analysis of the deposited data

How the results depend on the processing

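PCK2 at 48 h was the only member value whose side of the threshold changed, called by limma-voom with sample quality weights (1.61). Of 567 member values under alternatives 515 kept their direction and side of the threshold and 51 turned sign, none of them called. DMSO 48 h replicate 2, the library with the fewest counts on genes, limits the 48 h values, and PCK1, G6PC1 and FBP1 are limited by their few counts throughout. Each time point fitted alone gave no value for comparisons across times or averaged nor for FBP1 at 24 h, and at least 10 counts in every library none for FBP1 and SLC37A4.

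Genes called higher with Molidustat at 24 h (33), at 48 h (30) and on average (137) numbered 133, 172 and 255 with DESeq2, 104, 154 and 251 without a filter, 15, 14 and 79 with at least 10 counts in every library, and 64, 244 and 279 with limma-voom, and with each time point alone 57 and 7. Genes called lower (0, 3 and 10) numbered 12, 177 and 42 with DESeq2, 2, 610 and 191 without a filter and, at 48 h and on average, 34 and 35 with limma-voom. At 48 h they were 1 with at least 10 counts in every library and 0 with each time point alone. For the difference between the responses (0 higher, 0 lower) DESeq2 called 2 higher and 6 lower, and the fit without a filter 6 and 315. From 24 h to 48 h with DMSO (0 higher, 1 lower) DESeq2 called 32 and 8, total counts 1 and 2, the fit without a filter 387 and 13, limma-voom 2 lower and at least 10 counts in every library 0 lower. With Molidustat (0 and 0) DESeq2 called 7 and 5, the fit without a filter 1 and 3 and limma-voom 1 lower. The causes were not tested.

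Leaving out each library in turn gave 20 to 111 higher and 0 to 5 lower at 24 h, 13 to 55 higher and 0 to 272 lower at 48 h (272 without DMSO 48 h replicate 1), 77 to 190 higher and 1 to 19 lower on average, 0 to 0 for the difference, 0 to 1 higher and 1 to 2 lower over time with DMSO and 0 to 2 each with Molidustat. The 111, 190 and 19 came without DMSO 48 h replicate 2.

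Same-numbered replicates showed little shared deviation (6 pairs, r from -0.05 to 0.12, 1 over 0.1). So few pairs cannot exclude that the numbers pair the samples, which were fitted as unpaired. With the replicate block 30, 22 and 112 genes were called higher and 0, 0 and 7 lower at 24 h, at 48 h and on average, and FBP1 at 24 h turned to -0.18 and SLC37A4 over time with Molidustat to -0.0574.

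Other values that turned sign were FBP1 at 24 h (limma-voom -0.14), G6PC3 at 24 h (0.0079 with at least 10 counts in every library), at 48 h (0.0671 with total counts), for the difference (0.15 with total counts, 0.0713 with limma-voom) and over time with DMSO (-0.13 with total counts) and Molidustat (-0.0193 without a filter, -0.0087 with at least 10 counts), and PC for the difference (0.11 with total counts). With libraries left out, FBP1 ran from -2.83 to 2.73 at 24 h, -0.56 to 2.22 on average and -1.02 to 4.54 for the difference. G6PC3 ran from -0.27 to 0.31 at 24 h, -0.17 to 0.0322 at 48 h, -0.18 to 0.12 on average, -0.39 to 0.18 for the difference, -0.19 to 0.37 over time with DMSO and -0.29 to 0.18 with Molidustat. PC ran from -0.30 to 0.25 for the difference, -0.0554 to 0.43 over time with DMSO and -0.0307 to 0.41 with Molidustat, PCK2 from -0.53 to 0.0485 over time with DMSO and SLC37A4 from -0.25 to 0.53 with Molidustat.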
